A study of Mus musculus with 16 samples.

Results

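Mmp8, Mmp9, Mmp12, Mmp13 and Mmp14 are matrix metalloproteinases, Plau is the plasminogen activator urokinase and Plaur is its receptor. They are part of the secreted and cell surface proteolytic machinery with which macrophages degrade matrix. Serpinb2 is an inhibitor of plasminogen activators. Open chromatin around the start sites of these 8 genes was examined by ATAC-seq, in which the transposase Tn5 inserts adaptors into accessible DNA. Overlapping peaks of the 4 deposited peak lists were merged into 37648 regions. The 87 distinct regions whose midpoint lay within 100 kb of the annotated start of a member gene were taken, and all 87 are accounted for below. Mmp12 and Mmp13 lie next to each other and shared 6 of them.

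The cells were macrophages grown from C57BL/6J bone marrow in L-cell conditioned medium, deprived of serum for a day and treated on day 8 of culture. Each group held 4 libraries of 50000 cells. The Veh group received DMSO for 3 h, and the T0 group received T0901317, a synthetic agonist of LXR, for the same 3 h at 500 nM. The LPS and T0-LPS groups received DMSO or T0901317 in the same way, after which lipopolysaccharide was added at 10 ng/mL for 2 h more, so every comparison of a group with LPS against one without it also compared 2 culture times. No genotype differed between groups, and per the study's methods replicates were separately differentiated cultures.

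Matrix metalloproteinases are zinc endopeptidases made as inactive proenzymes. Urokinase, held at the cell surface by its receptor, cleaves plasminogen to plasmin, which degrades fibrin and can activate several of these proenzymes, and Serpinb2 inhibits urokinase. Several of the genes are classical targets of NF-kB and AP-1, the transcription factors that act below the LPS receptor TLR4. The liver X receptor, LXR, is an oxysterol-sensing nuclear receptor that induces cholesterol efflux genes and restrains inflammatory genes in macrophages, and whether its agonist closes chromatin near such genes was the question the 4 groups address.

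Each list was called by the authors on the 4 libraries of a group together, then limited to macrophage enhancers by published histone marks. There was therefore 1 list per group, no replicate check and no test, and all values below are descriptions of these 4 lists. The score of a peak is that of the peak caller, it grows with depth, and it was ranked only within its own list, as a percentile from 0 for the weakest to 100 for the strongest peak. A region called T0-closed had a Veh peak and no T0 peak, and a T0-opened region the converse. LPS-closed and LPS-opened regions were named in the same way against Veh. Numbers in the peak names skip along each list, which was taken to mark called peaks left out. A missing peak is said to have room where numbers were skipped between its flanking peaks, since a peak removed by the enhancer filter could lie there.

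The lists held 35551 peaks for Veh, 29839 for T0, 33181 for LPS and 31085 for T0-LPS, with median scores of 372, 305, 319 and 292. Library depth is unknown. The T0 list lacked many weak Veh peaks, and the loss of weak peaks lowers the percentile of those that remain. Scores were also lower in the T0 list, so a peak of equal score ranked higher there. A score of 366 stood at percentile 58.6 with T0, and a score of 368 at 49.5 with Veh. A peak lay within 1 kb of the start of 8 of 8 macrophage markers in the Veh and LPS lists and of 7 of 8 in the T0 and T0-LPS lists. Of the markers of other cells, peaks lay near 0 of 4 for T cells, 1 of 3 for B cells and 1 of 4 for neutrophils in all lists, and near 1 of 3 fibroblast markers in the Veh list alone. Since the lists were limited to macrophage enhancers, this checks the label only in part.

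The sequences of 8 regions on which the description turns are shown here, from the plus strand of GRCm38, the strand on which all 8 genes lie. Each is the central part of a region, at most 300 bases long and shortened where it met an untranslated region. Capitals mark exact matches on either strand to AP-1 (TGACTCA), PU.1 (GAGGAAGT), the nuclear receptor half-site (AGGTCA), NF-kB or the interferon-stimulated response element, and matches to DR4, a direct repeat of the half-site spaced by 4 bases, with up to 2 mismatches. A match is a description of letters and not a bound site.
Mmp9, 4635 bp upstream of the gene record (chr2:164935996-164936295, plus strand): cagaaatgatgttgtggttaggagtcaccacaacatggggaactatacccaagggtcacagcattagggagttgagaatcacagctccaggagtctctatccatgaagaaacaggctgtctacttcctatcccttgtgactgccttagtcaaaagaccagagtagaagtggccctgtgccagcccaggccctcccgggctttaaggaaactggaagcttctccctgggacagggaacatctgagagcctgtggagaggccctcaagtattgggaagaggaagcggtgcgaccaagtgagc
Mmp9, 504 bp upstream of the mRNA start (chr2:164947547-164947846, plus strand): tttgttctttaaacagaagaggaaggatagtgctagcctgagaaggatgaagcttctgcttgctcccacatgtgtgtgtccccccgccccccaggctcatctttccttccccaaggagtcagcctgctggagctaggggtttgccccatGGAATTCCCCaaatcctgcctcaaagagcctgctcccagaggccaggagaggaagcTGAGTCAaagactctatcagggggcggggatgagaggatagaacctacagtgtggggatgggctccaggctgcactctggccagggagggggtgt
Mmp9 intron, 2241 bp downstream (chr2:164942870-164943169, plus strand): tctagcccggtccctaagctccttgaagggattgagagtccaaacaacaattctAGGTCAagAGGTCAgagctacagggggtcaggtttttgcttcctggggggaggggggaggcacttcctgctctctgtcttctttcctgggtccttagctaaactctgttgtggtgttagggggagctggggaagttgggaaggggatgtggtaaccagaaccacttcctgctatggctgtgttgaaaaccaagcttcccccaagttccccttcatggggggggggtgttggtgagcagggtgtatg
Mmp14 intron, 11067 bp downstream (chr14:54442535-54442834, plus strand): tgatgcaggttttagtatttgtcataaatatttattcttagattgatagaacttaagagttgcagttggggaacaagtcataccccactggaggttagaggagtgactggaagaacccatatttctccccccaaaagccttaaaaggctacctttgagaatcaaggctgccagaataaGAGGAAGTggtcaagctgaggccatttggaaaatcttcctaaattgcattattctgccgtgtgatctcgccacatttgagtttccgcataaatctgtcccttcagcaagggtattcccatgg
Plau, 2336 bp upstream (chr14:20834206-20834442, plus strand): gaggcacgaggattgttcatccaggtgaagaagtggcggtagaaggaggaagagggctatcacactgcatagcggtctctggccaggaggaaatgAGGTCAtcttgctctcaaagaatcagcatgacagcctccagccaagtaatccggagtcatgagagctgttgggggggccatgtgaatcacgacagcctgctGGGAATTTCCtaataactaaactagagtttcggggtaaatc
Plau, 55435 bp downstream (chr14:20891951-20892250, plus strand): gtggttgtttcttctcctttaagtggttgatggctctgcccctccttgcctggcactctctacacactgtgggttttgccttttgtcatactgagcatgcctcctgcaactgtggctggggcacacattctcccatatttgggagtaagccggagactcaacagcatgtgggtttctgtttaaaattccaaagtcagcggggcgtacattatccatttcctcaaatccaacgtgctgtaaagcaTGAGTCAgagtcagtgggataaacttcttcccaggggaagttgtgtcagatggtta
Mmp13, region at the start (chr9:7272262-7272513, plus strand): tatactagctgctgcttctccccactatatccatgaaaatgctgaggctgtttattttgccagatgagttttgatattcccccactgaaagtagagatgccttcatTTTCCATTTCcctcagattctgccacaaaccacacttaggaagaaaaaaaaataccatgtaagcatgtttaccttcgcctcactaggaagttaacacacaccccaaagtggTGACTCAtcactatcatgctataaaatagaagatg
Mmp8, 14377 bp downstream in Mmp27 (chr9:7572684-7572983, plus strand): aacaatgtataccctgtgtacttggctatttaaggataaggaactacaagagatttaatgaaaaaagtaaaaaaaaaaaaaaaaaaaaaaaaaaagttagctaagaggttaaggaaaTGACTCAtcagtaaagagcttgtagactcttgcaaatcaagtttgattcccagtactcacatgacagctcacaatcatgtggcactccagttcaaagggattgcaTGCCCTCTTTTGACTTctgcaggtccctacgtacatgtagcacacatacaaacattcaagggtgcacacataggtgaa
The pair of Mmp9 regions upstream and the Mmp14 intronic region are shown because peaks there were present or far stronger with LPS, the Mmp9 intronic and both Plau regions because their peaks were weaker or missing with T0, and the last pair because they lie at the start of Mmp13 and, for the Mmp8 region with the largest change, in an intron of its neighbour Mmp27. The region 504 bp upstream of the Mmp9 mRNA start was not named by the rule for regions and was chosen after its values were seen. For the Mmp9 region 2241 bp downstream, intron and downstream refer to the gene record, and the region lies upstream of the listed mRNA start.

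The regions were spread unevenly. Plaur had 19, Mmp14 18, Mmp9 and Plau 14 each, Mmp13 11, Mmp12 and Serpinb2 6 each and Mmp8 5. Only 25 of the 87 were nearer to the start of a member than to that of any other coding gene, and 62 were nearer to another gene. Regions lay close to the 100 kb limit on both sides for Mmp9, with 94004 bp inside it and 102430 bp outside, and for Plau, with 92595 bp and 102145 bp. For the other genes the nearest region outside lay between 121472 bp and 285859 bp away. Inside the limit, the farthest regions of Plaur (97471 bp) and Mmp13 (95797 bp) lay nearer to it than those of Mmp9 and Plau.

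**Figure D1:**
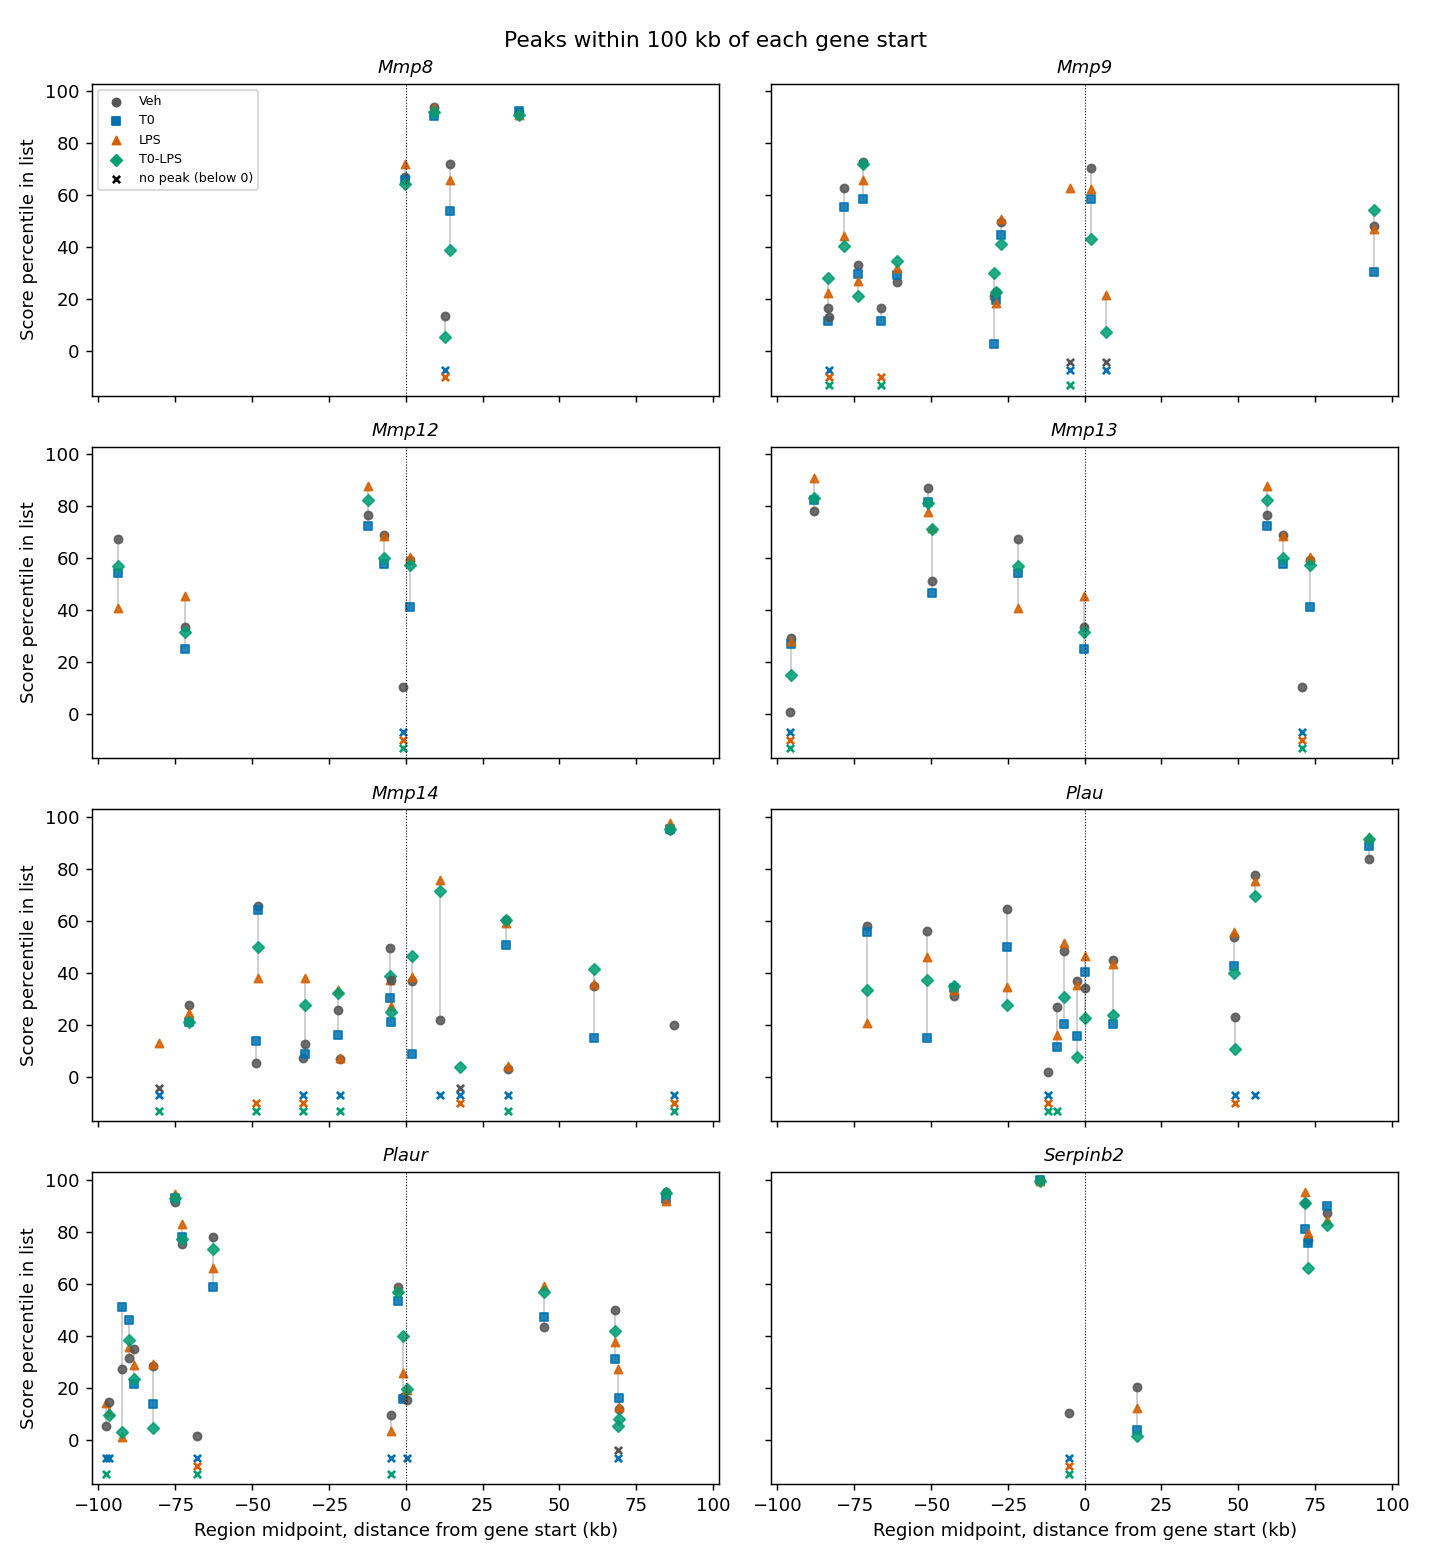
Score percentile of every region (vertical axis, 0 to 100 within its list) against the distance of its midpoint from the gene start in kb (horizontal axis), with 1 panel per gene and 1 symbol per list. Crosses below 0 mark lists with no peak, and the crosses of the 26 regions held in fewer than 4 lists lie mostly under low-ranked symbols, except for 1 region each at Mmp9 (4635 bp upstream), Mmp14 (11067 bp downstream) and Plau (55435 bp downstream).

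Peaks were gained and lost around the 8 genes at about the rates of the lists as a whole. Peaks of all 4 lists were found at 61 of the 87 regions (70.1%), against 70.2% of all regions. Of 82 regions with a Veh peak, 18 were T0-closed (22.0%, Wilson 95% interval 14.4 to 32.1, counting error only), beside 18.1% of all regions with a Veh peak. None of the 64 regions with a T0 peak was T0-opened, which allows a share of up to 4.69% by the limit of 3 counts, beside 0.729% of all regions. With lists cut to equal length, 5 of the 78 member regions then found were T0-closed and 4 T0-opened. Shares over all regions were not computed at that length, so these counts have no background. LPS-closed were 12 of 82 (14.6%, 8.57 to 23.9), beside 13.0%, and LPS-opened 4 of 74 (5.41%, 2.12 to 13.1), beside 6.14%. The T0 and LPS comparisons share the Veh list. In the presence of LPS, 7 of 74 LPS peaks were missing with T0 (9.46%, beside 9.97%) and 3 of 70 T0-LPS peaks were missing from the LPS list (4.29%, beside 3.37%). Between the lists with T0, 3 of 64 T0 peaks were missing from the T0-LPS list (4.69%, beside 7.70%) and 9 of 70 T0-LPS peaks were missing from the T0 list (12.9%, beside 11.7%). Each background share lay within the interval of the members.

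**Figure D2:**
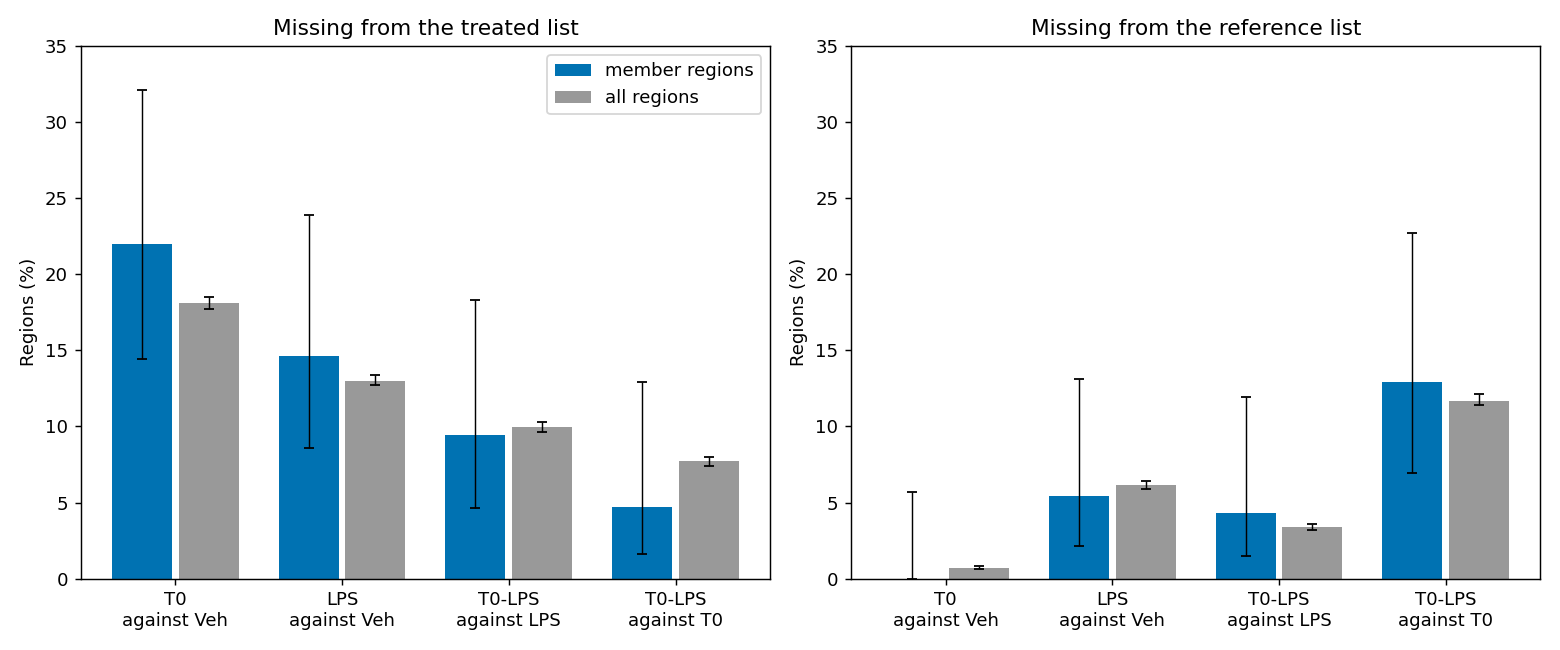
Share of regions in percent missing from the first-named list (left) or from the second-named list (right) in the 4 comparisons, for the 87 regions of the 8 genes (blue) and for all regions (grey), with Wilson 95% intervals that cover counting error only. The member bar for T0-closed regions stands at 22.0% beside 18.1%, and every grey bar lies within the interval of the blue one.

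Missing peaks were mostly weak ones. Of the 18 T0-closed regions, 17 had a Veh score in the lowest 3 deciles of the Veh list. The whole series was alike, with 2750, 2026 and 1010 of its 6365 T0-closed regions in these 3 deciles. If member regions had lost peaks at the rate of all regions of the same decile, 18.8 would have been closed. The same count was 13.5 for the 12 LPS-closed regions, 4.41 for the 4 LPS-opened ones, 6.68 for the 7 that T0 closed in the presence of LPS and 2.84 for the 3 that it opened there. Between the lists with T0, it was 9.64 for the 9 T0-LPS peaks missing from the T0 list and 5.84 for the 3 T0 peaks missing from the T0-LPS list. Of the 18 T0-closed regions, 6 had room for a removed T0 peak and 12 had none, and no such count over all regions is given.

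Regions around the plasminogen activator Plau ranked lower with T0 by the largest median of the 8 genes within the lists, though not when ranked among regions held in all lists, where Mmp12 had -5.66. Of the 11 Plau regions held in both lists, 8 ranked lower with T0 than with Veh, beside 77.1% of all regions, and 4 of them did so by at least 20 percentile points, a change found at 10.4% of all such regions and at 6 of 64 member regions (9.38%). The median difference at Plau was -14.5 points, against -5.08 over the members and -5.58 over all regions. Over all regions, those at the top of the Veh list mostly kept their rank with T0, and those in its middle fell further. The Plau regions in both lists ranked between 27.1 and 64.7 with Veh, except the one 92595 bp downstream, at 84.0. The values over all regions, -5.58 and 10.4%, are therefore no like-for-like background. With LPS present, 9 of 11 Plau regions ranked lower in the T0-LPS than in the LPS list, beside 60.7% of all regions, and 3 by at least 20 points, beside 4.36% of all regions and 6 of 67 member regions (8.96%), and the median was -8.68 against -2.28 and -1.76. Ranked only among the 26439 regions that all 4 lists held, so that list length no longer enters the rank, the median at 10 Plau regions was -5.29 with T0 alone (6 lower) and -9.83 with T0 and LPS (8 lower), with 1 region lower by at least 20 points in each, while that of all regions was 0.130 and 0.0586. Here and for the other genes, rank differences were not matched for starting percentile, so how far Plau differs from regions of like rank was not tested. Plau was singled out after its values were seen, and its regions share a locus and are no replicates.

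At the Plau start itself, a region at chr14:20836527-20836846 that spans the first exon had a score of 255 with Veh, 247 with T0, 297 with LPS and 154 with T0-LPS. Its percentile was 34.2, 40.4, 46.7 and 22.6, so it was lowest where T0 and LPS were combined. The region 2336 bp upstream (chr14:20834206-20834442), whose printed sequence holds 1 half-site and 1 NF-kB match, scored 272, 135, 229 and 100 in the order Veh, T0, LPS and T0-LPS. Both percentiles with T0, 15.8 and 7.82, were lower than both without it, 36.9 and 35.3. Both percentiles with T0 were also below both without it 6596 bp upstream, with scores of 360, 155, 330 and 190. The same held 9243 bp downstream, beyond the end of the gene, at 20.5 and 24.0 against 45.1 and 43.4, with scores of 333, 155, 276 and 159.

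Farther out, a region 51158 bp upstream in an intron of Camk2g, a calmodulin-dependent kinase gene, stood at percentile 56.4 with Veh (score 429) and 15.1 with T0 (score 133), and at 46.1 with LPS (score 293) and 37.4 with T0-LPS (score 218). Among the Plau regions held in all lists it was the one that ranked most below Veh with T0. A strong region 55435 bp downstream (chr14:20891821-20892369), between Plau and the cytoskeletal gene Vcl, scored 683 with Veh, 561 with LPS and 447 with T0-LPS and had no T0 peak. It was the highest-scoring T0-closed region near the 8 genes and the only one of them at or above the median Veh score, but 1 peak number was skipped in the 43486 bp between the flanking T0 peaks, so a filtered peak may lie there. With LPS and no T0, 2 of the 12 Plau regions held in both lists ranked at least 20 points below Veh, beside 9.14% of all regions. The region 70705 bp upstream scored 448 with Veh and 344 with T0, against 158 with LPS and 200 with T0-LPS, and that 25258 bp upstream scored 513, 305, 226 and 174 in the same order.

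**Figure D3:**
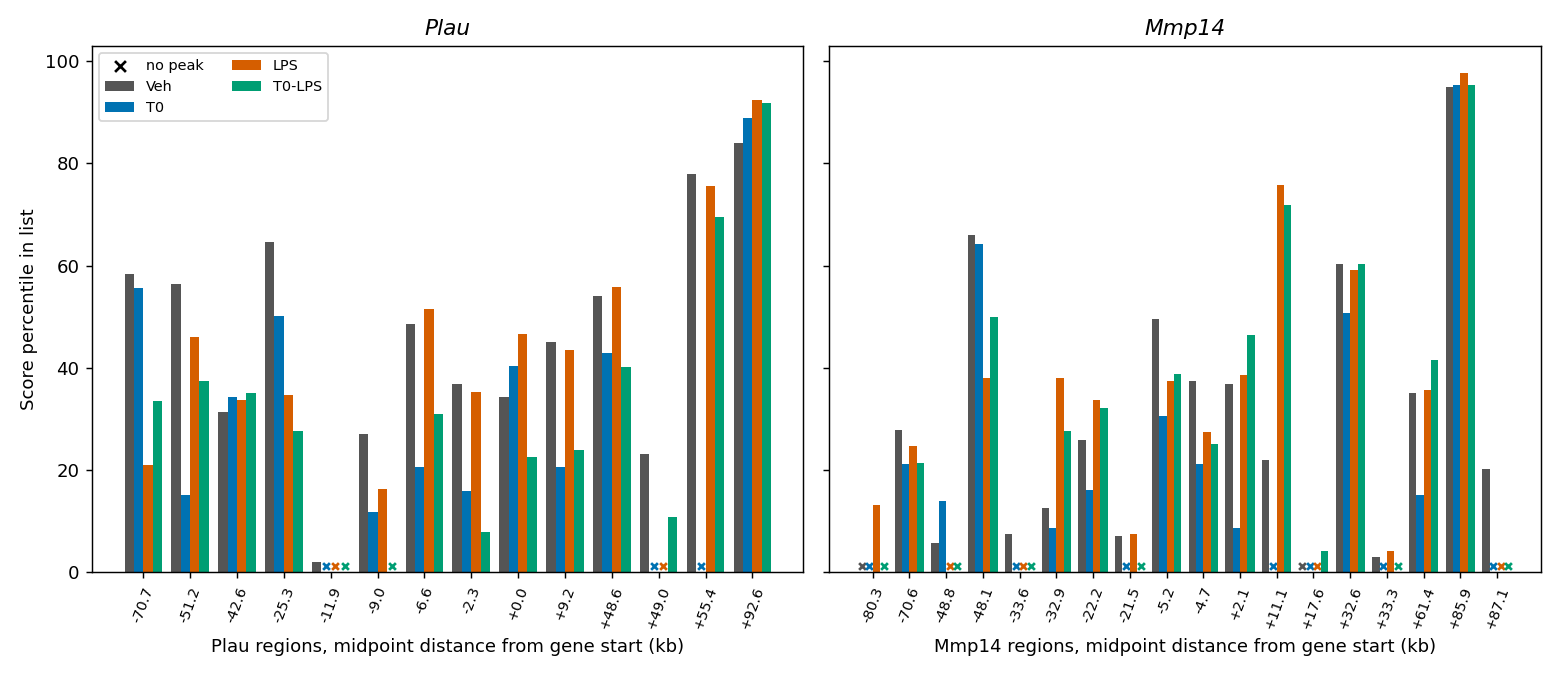
Score percentile (vertical axis, 0 to 100) in the 4 lists for each region within 100 kb of Plau (left) and Mmp14 (right), ordered by midpoint distance from the gene start in kb. At Plau the T0 and T0-LPS bars stand below the Veh and LPS bars 6596 bp and 2336 bp upstream and 9243 bp downstream, and at Mmp14 the bars 11067 bp downstream are tall with LPS and T0-LPS, low with Veh (22.0) and missing with T0.

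The urokinase receptor Plaur showed weak peaks at its start. A region 522 bp downstream of the start, in an intron (chr7:24462853-24463159), scored 149 with Veh, 149 with LPS and 142 with T0-LPS and had no T0 peak, with 1 number skipped between the flanking T0 peaks. All 3 peaks ranked in the lowest 20% of their lists. It held 1 DR4 and 1 AP-1 match. The region 955 bp upstream scored 155, 134, 180 and 234 for Veh, T0, LPS and T0-LPS and ranked highest in T0-LPS, at percentile 40.2 against 16.7 with Veh. The strongest region within 5 kb, 2484 bp upstream, scored 452, 329, 382 and 339 and kept percentiles between 53.6 and 58.7. Of the 18 Plaur regions with a Veh peak, 5 were T0-closed and 1 was LPS-closed, beside 18.1% and 13.0% of all regions.

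The largest rank differences in the Plaur window lay near another gene. A region 92396 bp upstream, 175 bp from the start of Kcnn4, a calcium-activated potassium channel gene, scored 212 with Veh, 312 with T0, 69 with LPS and 77 with T0-LPS. Within the lists it was the only member region that ranked at least 20 points higher with T0, at 51.2 against 27.2, a change found at 0.0762% of all regions. Ranked among regions held in all lists, 2 Plaur regions and 511 of all 26439 did so. In both lists with LPS it ranked at percentile 2.92 or lower. A region in a Kcnn4 intron 82315 bp upstream of Plaur scored 220, 128, 197 and 87 in the order Veh, T0, LPS and T0-LPS, and both percentiles with T0, 13.7 and 4.49, were again the lower ones.

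Serpinb2, the urokinase inhibitor, had 1 of the strongest regions of all lists. The region 14347 bp upstream (chr1:107496758-107497395) scored 1756 with Veh, 1595 with T0, 1470 with LPS and 1455 with T0-LPS and lay at or above percentile 99.7 in each list. It held no match to the 6 motifs in its central 200 bp. The region nearest to the start, 5046 bp upstream, had a Veh peak alone, of score 126 at percentile 10.3, with 4 or 5 numbers skipped in the other lists. Another, in a Serpinb2 intron 16908 bp downstream, scored 174 with Veh, 88 with T0, 122 with LPS and 68 with T0-LPS, and ranked lower with T0 in both settings, at 3.71 and 1.59 against 20.4 and 12.2. The other 3 regions lay closer to the gene Serpinb8 and ranked between 66.1 and 95.4 in all lists. No region was within 1 kb of the Serpinb2 start in any list.

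Mmp9, the gelatinase B gene, had 2 LPS-opened regions, both nearest to it. They were 2 of its 12 regions with an LPS peak (16.7%, 4.70 to 44.8), beside 6.14% of all regions, a share within that interval. The region 4635 bp upstream of the gene record (chr2:164935942-164936349, intergenic) had an LPS peak of score 423, at percentile 62.7, and no peak in the other lists. It was the strongest peak opened by LPS near the 8 genes and the strongest LPS peak missing with T0. Skipped numbers left room there, 3 in the Veh, 2 in the T0 and 2 in the T0-LPS list, over 28981 bp, 29043 bp and 29008 bp between flanking peaks. The other lay 504 bp upstream of the annotated mRNA start (chr2:164947547-164947883). It is inside the gene record, which begins 6935 bp before the midpoint of the region, but no transcript with that start was listed. It had an LPS peak of score 160 and a T0-LPS peak of score 98, at percentiles of 21.6 and 7.46, and none with Veh or T0. No numbers were skipped around it in these 2 lists, so the lists give no room for a removed peak. Its printed sequence holds 1 NF-kB and 1 AP-1 match, and it is the only one of the sequences shown with both.

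Between these lay a region 2241 bp downstream of the Mmp9 gene record start and upstream of the mRNA start (chr2:164942785-164943258). It was present in all lists and scored 580 with Veh, 366 with T0, 419 with LPS and 251 with T0-LPS. Its percentile was 70.5, 58.6, 62.3 and 43.3, lower with T0 both without and with LPS. It holds 2 copies of the half-site 2 bases apart. The farther Mmp9 regions belong to other genes by distance. They include 4 nearest to Pltp, which encodes the phospholipid transfer protein and is a known LXR target. The region 186 bp from its start, 83424 bp from that of Mmp9, scored 155 with Veh, 122 with T0, 165 with LPS and 175 with T0-LPS, and the one next to it, 26 bp from the Pltp start, had a Veh peak alone, of score 137. The region 4880 bp from the Pltp start scored 493, 344, 281 and 236. Across the 11 Mmp9 regions in both lists the median rank difference with T0 was -5.07, close to that of all regions, and with T0 in the presence of LPS it was 2.48. Ranked among regions held in all lists, these were 2.01 and 6.78.

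Mmp14, which encodes a membrane-anchored metalloproteinase that activates pro-Mmp2, held the largest LPS change of the 8 genes. The region 11067 bp downstream of its start, in an intron (chr14:54442390-54442969), scored 182 with Veh, 563 with LPS and 471 with T0-LPS, and had no peak with T0. Its percentile was 22.0 with Veh, 75.8 with LPS and 71.8 with T0-LPS. No numbers were skipped in the 30214 bp between the flanking T0 peaks. An increase of at least 20 points with LPS was found at 3.92% of all regions and at 3 of 70 member regions. The printed sequence holds 1 PU.1 match. PU.1 is the lineage factor of macrophage enhancers.

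The region nearest to the Mmp14 start, 2081 bp downstream in an intron, scored 272 with Veh, 110 with T0, 246 with LPS and 270 with T0-LPS. It ranked low with T0 alone, at 8.73 against 36.9, 38.5 and 46.5. No peak lay within 1 kb of the start. Among the 16 Mmp14 regions with a Veh peak, 5 were T0-closed and 3 were LPS-closed, beside 18.1% and 13.0% of all regions, and 2 were missing from all lists but Veh. Of the all-list regions, that in an intron of the amino acid transporter gene Slc7a7, 48129 bp upstream, changed most with LPS. It scored 526 and 410 with Veh and T0 and 244 and 291 with LPS and T0-LPS, and ranked lower in both lists with LPS, at 38.0 and 49.9 against 65.9 and 64.2. A lower rank of at least 20 points with LPS was found at 9.14% of all regions and at 5 of 70 member regions. The median rank difference with T0 was -9.66 over 11 Mmp14 regions without LPS and -1.48 with LPS, but -0.410 and 3.40 when ranked among regions held in all lists.

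The collagenase Mmp13 had a region over its start (chr9:7272262-7272613, midpoint 77 bp upstream). It scored 252 with Veh, 172 with T0, 290 with LPS and 192 with T0-LPS. Its percentiles with T0, 25.0 and 31.6, were lower than those without it, 33.7 and 45.6. The sequence upstream of the start holds 1 AP-1 match and 1 interferon-stimulated response element match. The intergenic region 21623 bp upstream scored 545 with Veh and 334 with T0, against 260 with LPS and 342 with T0-LPS, and went from percentile 67.5 with Veh to 40.7 with LPS.

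Mmp12, macrophage elastase, lies downstream of Mmp13, and its nearest region, 1027 bp upstream of the gene start (chr9:7343266-7343443), had a Veh peak alone. That peak was weak, with a score of 126 at percentile 10.3, no numbers were skipped in the other lists, and its sequence holds 1 AP-1 match. The region 1305 bp downstream, in an intron, scored 458, 251, 405 and 344 for Veh, T0, LPS and T0-LPS. The strongest lay 12364 bp upstream, with 660, 496, 765 and 603, and ranked highest with LPS. All 5 Mmp12 regions held in both lists ranked lower with T0 than with Veh, with a median of -11.0, and 4 of 5 ranked lower in T0-LPS than in LPS. Of all regions 77.1% and 60.7% ranked lower. Ranked among regions held in all lists, 3 of 5 and 4 of 5 Mmp12 regions were lower, and the medians were -5.66 and -5.38.

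The neutrophil collagenase gene Mmp8 had a region at its start (chr9:7558195-7558552, midpoint 83 bp upstream) that scored 542 with Veh, 426 with T0, 518 with LPS and 398 with T0-LPS and ranked between 64.3 and 72.1 in all lists. The Mmp8 region with the largest change was 14377 bp downstream, in an intron of Mmp27 (chr9:7572625-7573041), with 603, 333, 453 and 227 in the same order. It ranked at 39.1 with T0-LPS against 65.8 with LPS. The printed sequence holds 1 AP-1 and 1 DR4 match. The region in an exon of Mmp8 9045 bp downstream scored 1051, 791, 920 and 804 and stayed at or above percentile 90.7 in each list. It was the strongest with Veh, LPS and T0-LPS, while with T0 the region 36869 bp downstream scored higher, at 835.

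Within 1 kb of the start of a gene record lay 5 regions, at Mmp8, Mmp13, Plau and, with 2 regions, Plaur. All 5 ranked higher with LPS than with Veh, as did 12193 of all 30629 regions in both lists. Their median difference was 9.02 points, against -0.188 over the members and -2.01 over all regions. Ranked among regions held in all lists, the medians over the members and all regions were 3.92 and 0.0738. The Mmp12 region 1027 bp upstream, just outside the 1 kb limit, had no LPS peak. These 5 include peaks shown above, and the grouping was read after their values were seen. The median over the members in the T0-LPS list against the T0 list was 2.00, against 0.597 over all regions, and 7 of 61 regions ranked at least 20 points higher (11.5%, beside 7.76%) and 3 lower, beside 5.62%. In the T0-LPS list against the LPS list, none of 67 ranked at least 20 points higher, beside 0.929% of all regions.

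**Figure D4:**
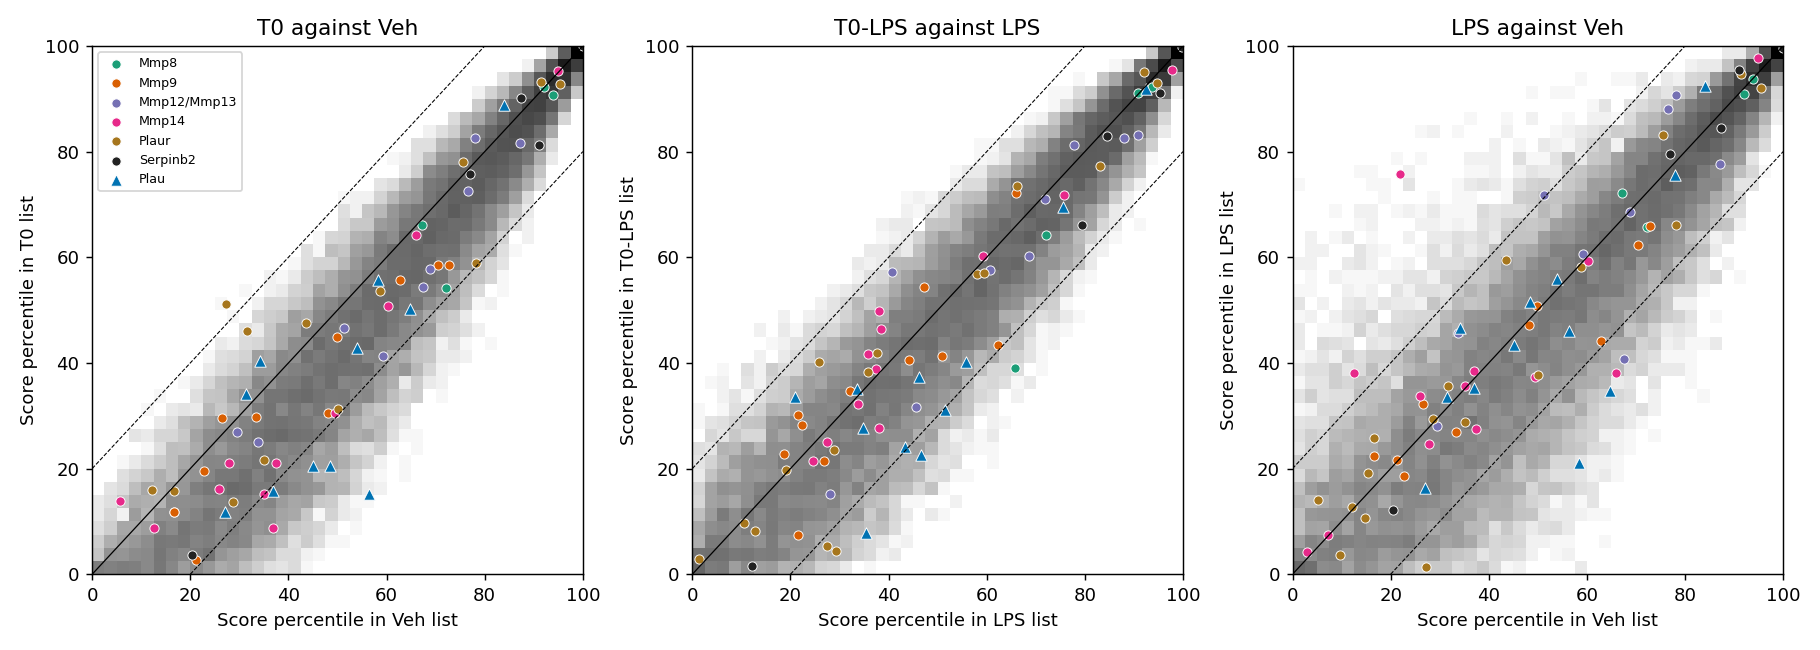
Score percentile of regions held in both lists, in the first-named list (vertical axis) against the other (horizontal axis), for T0 against Veh, T0-LPS against LPS and LPS against Veh. Grey shading gives the log count of all regions, symbols are member regions by gene (triangles, Plau), the solid line is equality and the dashed lines lie 20 points to either side. Below the lower line lie 4 Plau triangles with T0 and 3 with T0-LPS, and a Mmp14 point lies far above the upper line with LPS.

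Within the lists, regions nearest to a member start fell further in rank with T0 than those nearest to another gene. The 17 regions nearest to a member start and held in both lists had a median of -11.9 with T0, and 16 of them ranked lower, beside 77.1% of all regions. Their median with T0 in the presence of LPS was -7.83. The 47 regions nearest to another gene had -4.72, and their median with T0 in the presence of LPS was -1.50. Ranked among regions held in all lists, 10 and 11 of the 16 regions nearest to a member start were lower, with medians of -4.22 and -6.13, against 0.601 and -0.168 over all 61 member regions. Those 61 include the 16, and regions nearest to another gene were not ranked apart on that scale. The split was chosen after the values were seen, was not matched for starting percentile, and 5 of the 17 regions are those of Plau.

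Peaks were also narrower with T0. Of 62 member regions with a single peak in each list, 49 were narrower with T0 than with Veh (79.0%), and in the median the width decreased by 7.88%. Over all regions 87.6% were narrower, and in the median the width decreased by 11.3%. Peak width grows with depth, and the part of depth in these differences was not tested.

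Motif matches were counted in the central 200 bp of each region. AP-1 was matched at 14 of 87 member regions (16.1%) and at 13.6% of all 37620 regions searched, PU.1 at 5 (5.75% and 8.70%), the half-site at 11 (12.6% and 11.9%), NF-kB at 3 (3.45% and 4.32%), the interferon-stimulated response element at 4 (4.60% and 3.84%) and DR4 at 4 (4.60% and 1.90%).

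Of 34 further metalloproteinase, inhibitor, plasminogen, cathepsin and ADAM genes, 30 had a region within 100 kb, some of them member regions. For Mmp10 and Mmp27 all 5 regions were member regions. Without the members there were 245 regions. Of these, T0 closed 46 of the 231 with a Veh peak (19.9%, beside 18.1% of all regions) and opened 1 (0.538%, beside 0.729%). LPS closed 33 (14.3%, beside 13.0%) and opened 13 (6.16%, beside 6.14%). In the presence of LPS, T0 closed 21 (9.95%, beside 9.97%) and opened 5 (2.56%, beside 3.37%). Counted with member regions kept, T0 closed regions at 24 of the 30 genes and opened them at 1, and LPS at 19 and 12. The share of all genes with such a region was not computed, so these gene counts have no background. At or above the median score, LPS opened a region 42451 bp from Mmp7 (LPS score 559, T0-LPS score 492) and one near Serpina3g (LPS score 443, no T0-LPS peak), each with room in the Veh list, and closed one in an Adam17 intron (Veh score 386, T0 score 236) with no number skipped. Mmp7 encodes matrilysin and Adam17 the enzyme that sheds tumour necrosis factor.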

How the data were processed

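ATAC-seq libraries were adaptor-trimmed with cutadapt, aligned with Bowtie2 and deduplicated with SAMtools by the authors. Peaks were called by the authors with MACS2 (q threshold 0.001, extension 177 bp) on the 4 libraries of a group together and filtered to macrophage enhancers. The submitters' processing notes name mm10, and 100% of 129556 peaks on 21 main chromosomes ended within GRCm38 lengths. The deposited score column, 1 value per peak, has no header. Its values look like 10 times -log10 q, which could not be checked. Depth per library is unknown.

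Here, peaks overlapping by at least 1 bp were merged. The highest score per list gave the percentile. Genes came from GENCODE vM21, sequences from RefSeq GRCm38.p6. Members, lists and alternatives were chosen with earlier results of these data known. Named regions were the nearest to each start, those not in all lists with a score at or above a list median, and per gene the largest change of at least 20 points. Intervals are Wilson at 95%. Scripts (Python 3.11.15, NumPy 2.4.6, SciPy 1.17.1) were tested on simulated lists. Alternatives covered the window, score minimum, overlap, list length, merging, start site and ranking.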

Additional observations from a re-analysis of the deposited data

How the results depend on the processing

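No paired analysis was possible because each list was called on 4 libraries together, and leaving out a replicate gave no value for the same reason. Merging peaks up to 200 bp apart and taking any transcript start left all 12 results within 1.5 times, or within the interval of the median. The median T0 rank difference of -5.08 turned to 0.312 with lists of equal length and 0.601 when ranked among regions held in all lists, and was -13.6 within 10 kb. That of T0 in the presence of LPS (-2.28) was -0.0385, -0.168 and -7.83 under these 3 settings, and that of LPS (-0.188) was 3.19 with equal lists and 3.92 among regions held in all lists. Fewer T0-closed regions were counted within 50 kb (11) and 10 kb (4), with equal lists (5) and at a score of at least 200 (1), against 18. T0-opened regions were 4 with equal lists and 5 at a reciprocal overlap of 50%, against 0. LPS-closed regions were 7, 2, 4 and 0 under the first 4 settings, against 12, and LPS-opened ones 2, 2, 9 and 1, against 4. Regions closed with T0 in the presence of LPS were 3 within 10 kb and 1 at a score of at least 200, against 7, and opened 0 in both, against 3. Between T0-LPS and T0, closed regions were 1 within 10 kb, 5 with equal lists, 0 at a score of at least 200 and 12 at reciprocal overlap, against 3, and opened ones 2, 2 and 18 within 10 kb, at that score and at reciprocal overlap, against 9. A smaller window and a score minimum count fewer regions by construction. For these counts, shares over all regions were not computed. The lists are pooled, so no difference here has a measure of spread between libraries.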
